A study of Mus musculus with 36 samples.

Results

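Myosin and actin genes of the sarcomere were followed in mouse hearts in which an Akt1 transgene was switched on and off. The genes were Myh6, Myh7, Myl1, Myl2, Myl3, Acta1 and Actc1, and each probe set was taken whose platform annotation gives 1 of these symbols alone. The 7 genes were among 18193 that the Affymetrix chips 430A and 430B measure with such a probe set, and they had 10 of the 45137 non-control probe sets. Chip 430A held all 10 and chip 430B held 0, and each of them passed the filter on low signal. Myh6 had 2 probe sets, Myl3 had 3 and each other gene had 1.

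The hearts came from Tet-myrAkt1/MHC-tTA mice, which the labels describe as male and as carrying both transgenes in every group, so no heart without the transgenes was compared. The tTA activator is driven by a myosin heavy chain promoter, as its label says, which limits the transgene to cells where that promoter works. Of 18 hearts, 4 came from mice aged 12 weeks in which the transgene had not been induced (before induction). In 4 mice aged 14 weeks it had been on for 2 weeks (2 weeks on), and in 4 others it had then been off for 2 days (2 days off), at 14 weeks and 2 days. In 3 mice aged 18 weeks it had been on for 6 weeks (6 weeks on), and in 3 aged 20 weeks it had then been off for 2 weeks (2 weeks off). Age therefore moved with treatment and cannot be told apart from it. Whole heart tissue was used, so fewer cells of a type and less RNA per cell cannot be told apart.

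Each myosin molecule of the thick filament holds a pair of heavy chains, which carry the ATPase, and light chains that stiffen or regulate its neck. In the mouse, Myh6 encodes the fast alpha heavy chain of the adult heart and Myh7 the slower beta heavy chain of the fetal ventricle, and a shift towards Myh7 is a known feature of hypertrophy and failure in rodents. Myl2 is the ventricular regulatory light chain, Myl3 the ventricular essential light chain, and Myl1 the essential light chain of fast skeletal muscle. Actc1 is the cardiac alpha-actin of the thin filament and Acta1 the skeletal alpha-actin, which is also found in the fetal heart.

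The DNA before the RefSeq start of the genes that the results turn on is printed to show the control elements they share and do not share. Each sequence is the 250 bases before the start on build GRCm38.p6, written 5′ to 3′ on the gene's strand, and the capitals mark an MCAT box (CATTCC, or GGAATG on the other strand), the element bound by TEAD factors, and a CArG box, the element bound by SRF.
Myh6, chr14:54966608-54966857, minus strand: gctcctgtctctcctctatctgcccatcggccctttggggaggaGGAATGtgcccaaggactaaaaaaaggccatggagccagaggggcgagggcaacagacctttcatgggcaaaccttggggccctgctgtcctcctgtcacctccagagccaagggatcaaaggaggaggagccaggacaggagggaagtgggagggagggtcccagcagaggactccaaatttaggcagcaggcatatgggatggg
Myh7, chr14:54994627-54994876, minus strand: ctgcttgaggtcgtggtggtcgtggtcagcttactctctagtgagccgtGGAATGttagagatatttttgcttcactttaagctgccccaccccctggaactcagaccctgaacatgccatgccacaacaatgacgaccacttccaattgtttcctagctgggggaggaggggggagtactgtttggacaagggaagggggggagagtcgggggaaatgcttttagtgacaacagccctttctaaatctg
Myl1, chr1:66945057-66945306, minus strand: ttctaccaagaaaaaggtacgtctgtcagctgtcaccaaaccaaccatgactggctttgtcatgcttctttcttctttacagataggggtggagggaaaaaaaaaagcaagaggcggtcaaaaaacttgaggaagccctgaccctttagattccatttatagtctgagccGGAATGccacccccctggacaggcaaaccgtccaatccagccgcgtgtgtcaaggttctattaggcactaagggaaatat
Acta1, chr8:123894776-123895025, minus strand: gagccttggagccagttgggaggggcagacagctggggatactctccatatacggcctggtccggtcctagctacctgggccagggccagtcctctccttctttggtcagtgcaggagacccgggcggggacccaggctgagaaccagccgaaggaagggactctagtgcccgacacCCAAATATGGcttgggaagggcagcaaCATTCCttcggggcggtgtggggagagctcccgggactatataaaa
Actc1, chr2:114052876-114053125, minus strand: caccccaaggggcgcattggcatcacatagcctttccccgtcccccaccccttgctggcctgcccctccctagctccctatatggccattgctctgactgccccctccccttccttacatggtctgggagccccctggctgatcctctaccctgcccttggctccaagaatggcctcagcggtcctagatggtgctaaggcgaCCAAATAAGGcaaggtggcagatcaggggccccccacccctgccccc

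The MCAT box was present in Myh6, Myh7, Myl1 and Acta1, with its first base 206, 201, 80 and 46 bases before the start, and at 177 and 149 bases in Myl3. The CArG box lay 73 bases before the start in Acta1, 47 in Actc1 and 85 in Myl3. Of 32851 mouse promoters of this length 12.6% held an MCAT box and 1.47% a CArG box. The window of a second RefSeq start of Myh7 (chr14:54994550-54994799, not printed) had neither, nor did the 2 windows of Myl2. That Myh7 window overlaps the printed one and begins downstream of the printed MCAT box, which therefore lies outside it. The printed windows of Myh6 and Myl1 lie inside the spans of their genes (chr14:54941921-54968017 and chr1:66924295-66947932), so each precedes an internal start. The DNA before the 5′ ends of those spans was not searched. Searched in the same way on both strands were the E-box CANNTG (66.2% of promoters), the GATA site AGATAA (9.99%), the thyroid half-site AGGTCA (14.0%) and the TATA box TATAAA (12.4%). Among the printed windows the E-box occurred in Myh6, Myh7, Myl1 and Acta1, the TATA box in Myl1 and Acta1, and the GATA site and thyroid half-site in none. A match is a description of letters and shows no binding.

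Signals are the linear MAS5 values that were deposited. Changes are differences of group means on the log2 scale, after an offset of 50.02 signal units, from a limma model fitted to the 15565 kept probe sets of chip 430A, and a change was called at a Benjamini-Hochberg adjusted p under 0.05. The labels describe individual mice, so p-values measure the spread between hearts. Levels of different probe sets are not comparable as amounts of RNA. Akt1, measured by probe set 1425711_a_at, had 508 to 652 before induction, 1981 to 3481 at 2 weeks on, 696 to 745 at 2 days off, 1851 to 2931 at 6 weeks on and 633 to 837 at 2 weeks off. That probe set was high in every heart labelled as induced, and the other 3 Akt1 probe sets were not. Hearts 3 and 4 before induction, labelled male like the others, had signal for Xist, the RNA of the silenced X chromosome of females. Median signals of the arrays of chip 430A ran from 183.0 to 231.7.

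**Figure D1:**
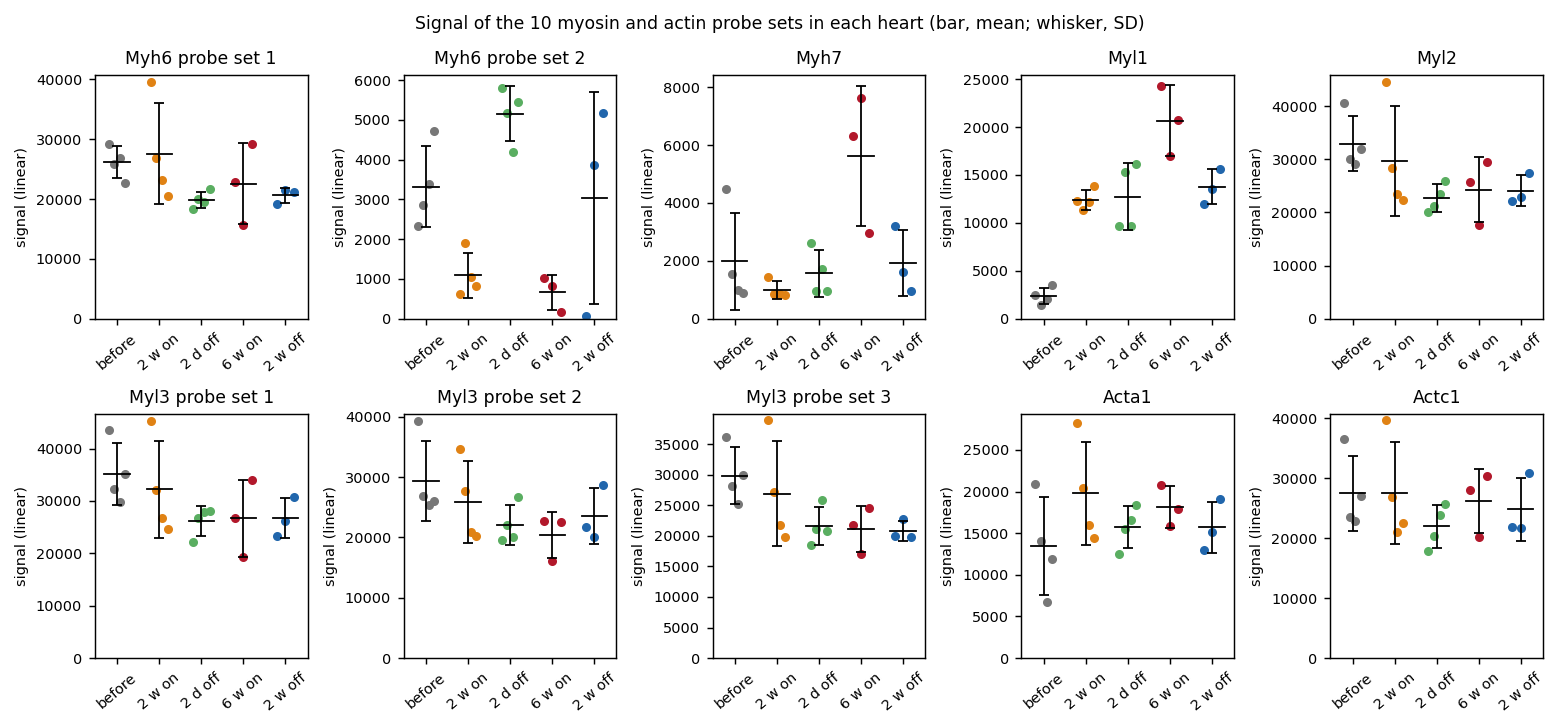
Signal of each of the 10 probe sets in each of the 18 hearts, with the group mean as a bar and the SD as a whisker; the y axis is the linear signal and starts at 0, and groups run in time order. Myl1 lies at 9686.7 or more in each heart after induction began, against 1477 to 3491 before induction, and Myh7 averages 5635 at 6 weeks on.

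The Myh7 signal rose at 6 weeks on and was lower again after 2 weeks of repression. Probe set 1448553_at gave 4473.6, 1559.3, 999.8 and 892.8 in the 4 hearts before induction. The 4 hearts at 2 weeks on had 1456.1, 843.3, 856.0 and 817.3, and those at 2 days off had 2628.5, 950.2, 1721.5 and 954.7. The 3 hearts at 6 weeks on had 6315.9, 7636.5 and 2951.3, and those at 2 weeks off had 3195.4, 1624.8 and 955.7. Each heart at 6 weeks on was above each heart at 2 weeks on, while heart 1 before induction overlapped the range at 6 weeks on.

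Myh7 averaged 5634.6 ± 2415.8 at 6 weeks on (SD, n = 3) and 993.2 ± 309.0 at 2 weeks on (SD, n = 4), a 5.67-fold ratio of means and a log2 change of 2.38 ± 0.487 (SE; limma adjusted p = 0.00719). Against the mean before induction of 1981.4 ± 1687.0 (SD, n = 4) the log2 change at 6 weeks on was 1.69 ± 0.487 (SE; limma adjusted p = 0.0192). Without both hearts that had Xist signal that change was 0.97 (limma adjusted p = 0.258), and the call was also lost without either of them alone and without heart 1 or heart 2 at 6 weeks on (1.42 to 1.55, adjusted p = 0.0578 to 0.0802). After 2 weeks of repression Myh7 averaged 1925.3 ± 1149.7 (SD, n = 3), lower than at 6 weeks on by a log2 change of -1.58 ± 0.521 (SE; limma adjusted p = 0.0399), and this call was lost without heart 1 or 2 at 6 weeks on or without heart 2 or 3 at 2 weeks off (-1.55 to -1.18, adjusted p = 0.0954 to 0.179). It was lost as well with every heart kept, with no filter, no variance trend, either Actb ratio or the hybridisation controls as a covariate (-1.88 to -1.51, adjusted p = 0.0501 to 0.0817).

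At 2 weeks on Myh7 did not pass the test against the hearts before induction (log2 change -0.69 ± 0.451, SE; limma adjusted p = 0.389), and the groups overlapped. Its log2 change at 2 days off from 2 weeks on was 0.54 (adjusted p = 0.439), and at 2 weeks off its change from before induction was 0.10 (adjusted p = 0.936). The late response to repression (2 weeks off against 6 weeks on) differed from the early one (2 days off against 2 weeks on) by -2.13 ± 0.689 (SE; limma adjusted p = 0.158), which did not pass.

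The 2 probe sets of Myh6 did not give the same pattern. Probe set 1448826_at, called probe set 1 here, was bright in every heart. It had 29213.5, 25834.9, 26853.1 and 22699.4 before induction, 39593.8, 26877.8, 23183.2 and 20512.6 at 2 weeks on, and 18356.3, 19924.6, 19469.7 and 21651.6 at 2 days off. The hearts at 6 weeks on had 22871.5, 15610.6 and 29263.2, and at 2 weeks off 19187.7, 21500.6 and 21179.6. It was called in none of the 7 comparisons, with log2 changes from -0.43 (2 days off against 2 weeks on, limma adjusted p = 0.107) to 0.03 (2 weeks on against before induction, adjusted p = 0.937).

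Probe set 1417729_at, probe set 2 of Myh6, was lower in every heart with the transgene on than in every heart before induction. It gave 2330.6, 2855.5, 3383.0 and 4719.4 before induction, 614.8, 1901.1, 1040.6 and 818.8 at 2 weeks on, and 5804.6, 5184.3, 4191.2 and 5456.5 at 2 days off. The hearts at 6 weeks on had 1015.3, 814.7 and 163.2, and those at 2 weeks off had 56.9, 3879.4 and 5179.4. The hearts at 2 days off were all above those at 2 weeks on, and at 2 weeks off heart 1 stood far below the other hearts of its group.

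Its fall at 6 weeks on passed the test narrowly, with a mean of 664.4 ± 445.5 (SD, n = 3) against 3322.1 ± 1025.8 before induction (SD, n = 4), a log2 change of -2.49 ± 0.874 (SE; limma adjusted p = 0.0486). That call was lost under most other settings, among them the leaving out of any 1 heart before induction, at 2 weeks on or at 2 days off, or of heart 2 or 3 at 6 weeks on (log2 change -2.78 to -1.77, adjusted p = 0.0505 to 0.219). At 2 weeks on the log2 change from before induction was -1.63 ± 0.809 (SE; limma adjusted p = 0.237), and at 2 days off the change from 2 weeks on was 2.30 ± 0.809 (SE; adjusted p = 0.055). At 2 weeks off the change from 6 weeks on was 1.16 ± 0.934 (SE; adjusted p = 0.425). Without heart 1 at 2 weeks off the change at 2 weeks on was of the same size and was called (limma adjusted p = 0.0119), and that at 2 weeks off was 2.96 (adjusted p = 0.000992). The change at 2 days off was called without that heart too (2.30, adjusted p = 0.000692), and also with each of 4 other hearts left out singly and under 3 settings that keep every heart (2.24 to 2.59, adjusted p = 0.0339 to 0.0499).

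Array measures moved with both Myh6 probe sets. Over the 18 hearts, each on its own array of chip 430A, the log2 signal of probe set 1 had a Pearson correlation of 0.96 (Spearman 0.96, and Pearson 0.92 without the 2 arrays farthest from the median) with the mean of the 18 hybridisation control probe sets, which read RNA added to each array. Probe set 2 had a correlation of -0.80 (Spearman -0.79, and -0.71 without the 2 farthest) with the Actb 3′ to middle signal ratio, a measure of RNA integrity that is high in degraded RNA. The highest such ratios were 3.06 in heart 3 at 6 weeks on, 1.89 in heart 1 at 2 weeks off and 1.80 in heart 1 at 2 weeks on, and these hearts had the lowest probe set 2 signal of their groups. With that ratio as a covariate, chosen after the data were seen, the change at 6 weeks on was -1.39 (limma adjusted p = 0.116), and with the Actb 3′ to 5′ ratio it was -1.71 (adjusted p = 0.16). All 4 ratios at 2 days off, 1.15 to 1.26, were below all those at 2 weeks on, 1.34 to 1.80. The sources used here do not say which piece of the transcript each probe set reads.

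**Figure D2:**
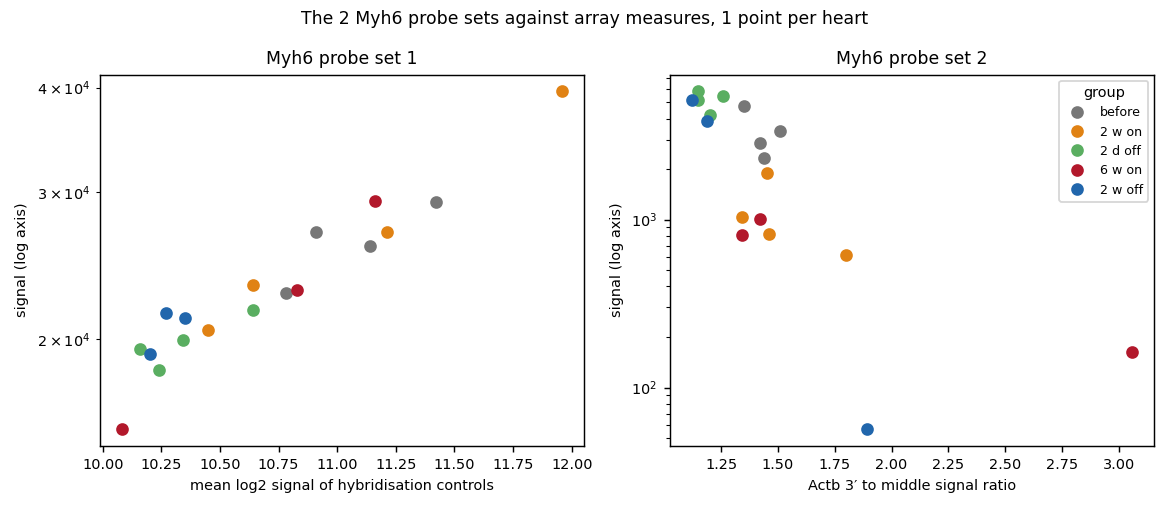
Myh6 probe set 1 against the mean log2 signal of the hybridisation controls (left) and Myh6 probe set 2 against the Actb 3′ to middle signal ratio (right), with 1 point per heart coloured by group and a log axis for the signal. The left points rise together (Pearson 0.96) and the right points fall (Pearson -0.80), with heart 3 at 6 weeks on at a ratio of 3.06 and heart 1 at 2 weeks off at a signal of 56.9.

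Another pair of probe sets carries both symbols, Myh7 and Myh6, and does not belong to the 10. Of these, 1448827_s_at followed Myh6 probe set 2 over the 18 hearts (Pearson 1.0), and 1448554_s_at followed Myh6 probe set 1 (Pearson 0.90) and Myl2 (Pearson 0.95). Their reads of the heavy chains cannot be separated, so no direction was drawn from them.

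The balance of the heavy chains was taken in each heart as the log2 ratio of the Myh7 signal to the signal of Myh6 probe set 1. The ratio is not a ratio of molecules, and its differences between hearts alone are used. It was -2.69, -4.01, -4.68 and -4.59 before induction, -4.72, -4.91, -4.68 and -4.57 at 2 weeks on, and -2.78, -4.32, -3.46 and -4.43 at 2 days off. The hearts at 6 weeks on had a balance of -1.85, -1.03 and -3.29, and those at 2 weeks off had -2.57, -3.69 and -4.40. The 3 hearts at 6 weeks on were all above the 4 at 2 weeks on, and so were the 4 at 2 days off.

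The balance averaged -2.05 ± 1.14 at 6 weeks on (SD, n = 3) and -4.72 ± 0.14 at 2 weeks on (SD, n = 4), a difference of 2.67 with a two-sided exact permutation p of 0.0286, the smallest these groups allow, and 0.1 after adjustment over 7 comparisons. It averaged -3.75 ± 0.78 at 2 days off (SD, n = 4), a difference of 0.97 from 2 weeks on (exact p = 0.0286, adjusted 0.1). Myh6 probe set 1, the divisor of the ratio, had a log2 change of -0.43 there and moved with the hybridisation controls (Pearson 0.96). The difference of 6 weeks on from before induction, -3.99 ± 0.92 (SD, n = 4), was 1.94 (exact p = 0.0857, adjusted 0.2), and at 2 weeks off the difference from 6 weeks on was -1.50 (exact p = 0.2, where 0.1 is the smallest possible). None of the 7 comparisons passed after adjustment. The 2 at the smallest possible exact p came to 0.1 after adjustment over 7, so beside the other 5 they could not have passed.

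With Myh6 probe set 2 in the ratio, an alternative chosen after the data were seen, the balance was 2.58, 3.15 and 3.82 at 6 weeks on, against 0.93, -0.85, -1.71 and -2.34 before induction. Those groups did not overlap, with a difference of 4.18 (exact permutation p = 0.0571, adjusted 0.133). The difference of 6 weeks on from 2 weeks on was 3.24 (exact p = 0.0286, adjusted 0.1), in the same direction as with probe set 1. The difference of 2 days off from 2 weeks on was -1.75 (exact p = 0.0286, adjusted 0.1), opposite in sign to the 0.97 found with probe set 1. At 2 weeks on against before induction the signs also differed, 0.94 with probe set 2 and -0.73 with probe set 1.

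**Figure D3:**
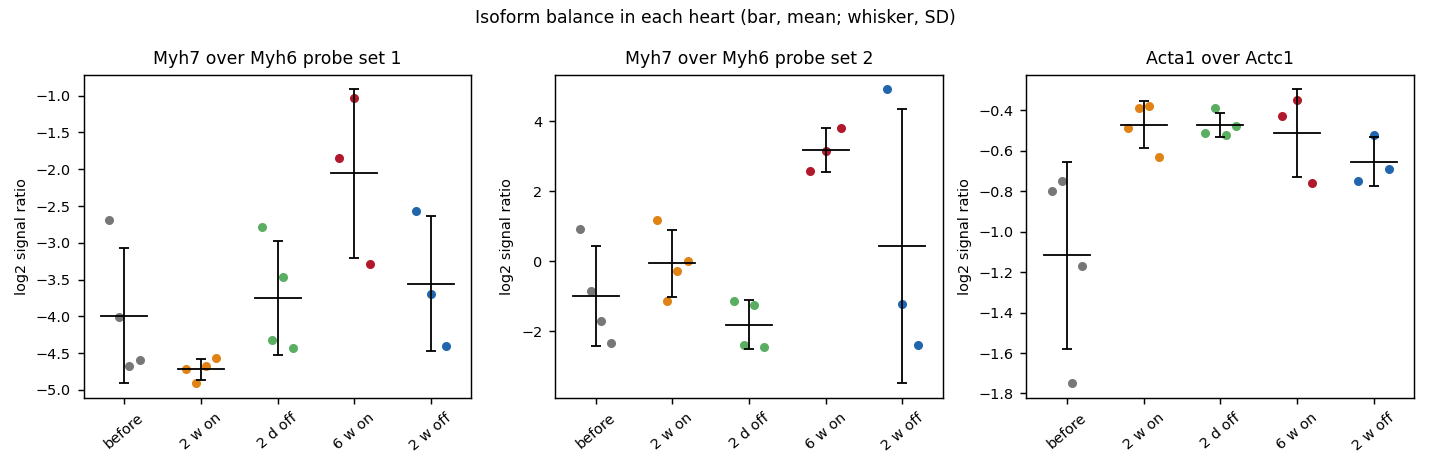
Log2 signal ratios in each heart for Myh7 over Myh6 probe set 1, Myh7 over Myh6 probe set 2 and Acta1 over Actc1, with the group mean as a bar and the SD as a whisker, in time order. With both Myh6 probe sets the 3 hearts at 6 weeks on lie above the 4 at 2 weeks on, and the order of 2 days off and 2 weeks on turns round between them.

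Myl1 rose in every comparison with the hearts before induction and stayed above them after repression. Probe set 1452651_a_at gave 2435.1, 1476.7, 2109.5 and 3490.7 before induction and 12332.5, 11317.9, 12137.7 and 13848.4 at 2 weeks on. It gave 9705.2, 15327.2, 9686.7 and 16163.1 at 2 days off. The hearts at 6 weeks on gave 24315.8, 16994.1 and 20717.2, and those at 2 weeks off 12022.2, 13580.8 and 15660.8. The lowest later heart, at 9686.7, was above the highest heart before induction, at 3490.7.

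Myl1 averaged 12409.1 ± 1055.4 at 2 weeks on and 2378.0 ± 841.8 before induction (SD, n = 4 each), a 5.22-fold ratio of means and a log2 change of 2.42 ± 0.211 (SE; limma adjusted p = 1.06e-06). Of the 10 probe sets it was the 1 called in that comparison, in which 8.36% of kept probe sets on chip 430A were called. It averaged 20675.7 ± 3661.0 at 6 weeks on (SD, n = 3), 8.69-fold the mean before induction (log2 change 3.14 ± 0.228, SE; limma adjusted p = 5.93e-08). In that comparison 3 of the 10 were called, Myl1 and Myh7 higher and Myh6 probe set 2 lower, with 21.4% of all kept probe sets called, 8.47% higher and 13.0% lower. Against 2 weeks on, all 3 hearts at 6 weeks on had more Myl1 signal (log2 change 0.72 ± 0.228, SE), which did not pass (limma adjusted p = 0.0639). Myh7 was the 1 of 10 called in that comparison, where 6.59% of all were.

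Switching the transgene off left Myl1 high. At 2 days off the log2 change from 2 weeks on was -0.00 ± 0.211 (SE; limma adjusted p = 0.997), and 0 of the 10 probe sets were called, against 18.0% of all kept probe sets, while 2 of the 10 (Myh6 probe sets 1 and 2) had an unadjusted p under 0.05. Against before induction Myl1 at 2 days off was 5.35-fold higher by means (log2 change 2.42, limma adjusted p = 2.11e-06), the 1 of 10 called, with 5.31% of all called. At 2 weeks off all 3 hearts were below those at 6 weeks on (log2 change -0.58 ± 0.244, SE; adjusted p = 0.105), which did not pass, and Myh7 was the 1 of 10 called, with 19.1% of all called. At 2 weeks off Myl1 was still 5.78-fold above the mean before induction (log2 change 2.56 ± 0.228, SE; limma adjusted p = 3.84e-06), the 1 of 10 called, with 3.54% of all called. The test of the late against the early response to repression called 0 of 10 probe sets (0.893% of all), while 1 of the 10, Myh7, had an unadjusted p under 0.05.

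**Figure D4:**
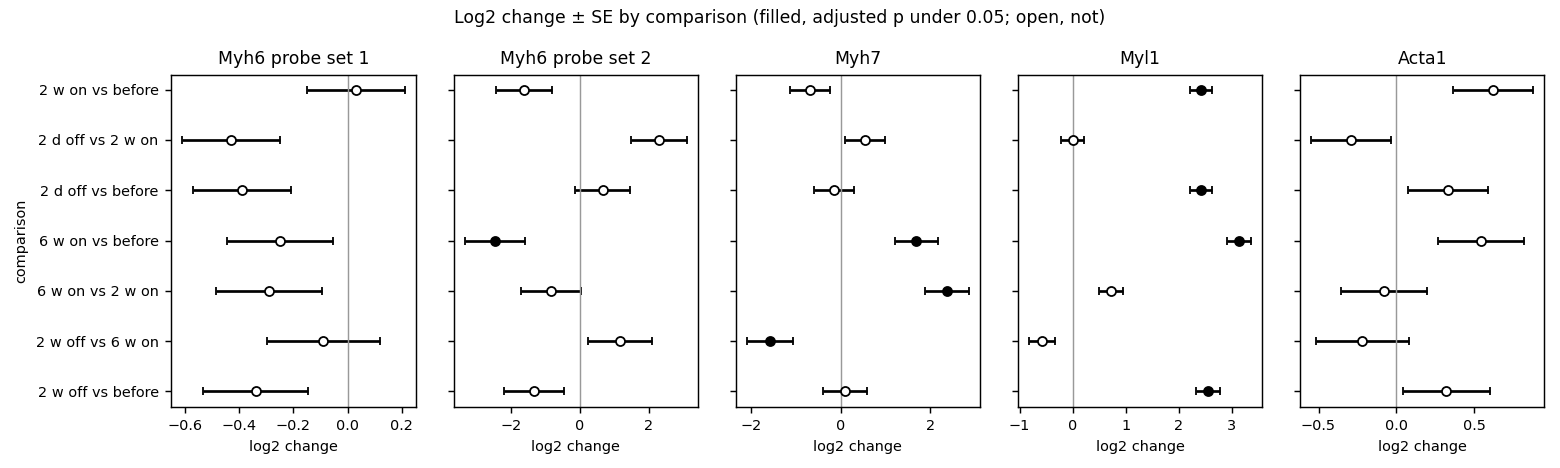
Log2 change with its SE for Myh6 probe sets 1 and 2, Myh7, Myl1 and Acta1 in the 7 comparisons, where filled points passed an adjusted p of 0.05 and each panel has its own x axis. Myl1 is filled in each of its 4 comparisons with the hearts before induction, at 2.42 to 3.14, and Myh6 probe set 1 and Acta1 are open throughout.

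Markers of muscle other than the ventricle were set beside Myl1. Of 16 markers of skeletal muscle fibres 7 were measured. Ryr1, the calcium release channel of skeletal muscle, rose at 2 weeks on (log2 change 2.59) and at 6 weeks on (3.80). Casq1, a calcium store protein of fast fibres, rose by 2.31 and 2.10 in those comparisons. That made 2 of 7 higher and 0 lower in each. The share of probe sets called was 5.01% and 13.2% over both chips (8.36% and 21.4% on chip 430A, used for a gene where possible). The other 5 were Atp2a1, Myoz1, Pygm, Mybpc2 and Myh4, the last at no more than 84.7 on chip 430B, and none of these passed in either comparison. Mylpf, the regulatory light chain of fast fibres, ran from 43.8 to 153.9 over the 18 hearts, Tnnt3 from 39.2 to 131.1 and Pvalb from 28.3 to 168.1, and their means were below the filter. Myh1, Myh2, Tnnc2, Tnni2 and Actn3 were also below it. The summed signal of the 5 measured markers on chip 430A was 13338.7 to 14293.3 at 2 weeks on and 13147.0 to 16971.2 at 6 weeks on, against 8427.8 to 13191.6 before induction. That of the 2 on chip 430B, Mybpc2 and Myh4, was 1394.4 to 2280.4 at 2 weeks on and 1307.5 to 1369.0 at 6 weeks on, against 603.1 to 2253.6 before induction. Mybpc2, the fast myosin-binding protein C, rose by 1.24 at 2 weeks off against 6 weeks on, a call lost with arrays scaled to a common median. In that comparison Ryr1 had a log2 change of -1.46 (limma adjusted p = 0.0202), with -1.88 in its other probe set, not called. Casq1 fell by 1.09 at 2 days off against 2 weeks on.

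Myl4 and Myl7, the atrial light chains, varied between hearts of a group. Myl7 had 369.9, 190.8, 3626.4 and 45.6 at 2 weeks on, and 6.1, 92.3, 20.8 and 13763.1 before induction. Heart 4 at 2 weeks on had 45.6 for Myl7 and 13848.4 for Myl1. Heart 4 before induction had the highest Myl7 signal of all hearts and the highest Myl1 signal of its group, 3490.7. Myl7 averaged 4233.6 at 2 days off (32.1 to 8760.8) and 4311.2 at 2 weeks off (15.3 to 9701.3). Its means were 1058.2 at 2 weeks on, 324.3 at 6 weeks on and 3470.6 before induction. The median log2 change of the measured atrial markers from before induction was 1.44 at 2 days off and 1.37 at 2 weeks off. At 2 days off against 2 weeks on the median was 1.06, and 0 of 8 were called higher and 1 lower. That was Kcna5 (-0.81, limma adjusted p = 0.0251), with 18.0% of chip 430A called. At 2 weeks off against 6 weeks on the median was 0.42, and Kcna5 was again the 1 called (-0.91, limma adjusted p = 0.0291), with 19.1% of chip 430A called. The part of atrial tissue in the Myl1 values was not tested. The list of 9 atrial markers holds Myl1 itself, which was the 1 of 8 measured markers that rose at 2 weeks on and at 6 weeks on. In those comparisons 8.36% and 21.4% of the probe sets of chip 430A, which holds these markers, were called.

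Myl2 and Myl3, the ventricular light chains, passed in no comparison. Myl2 had 22328.9 to 44571.7 at 2 weeks on, 20102.8 to 25915.9 at 2 days off, 17578.0 to 29481.5 at 6 weeks on and 22070.5 to 27359.5 at 2 weeks off, against 29101.5 to 40503.6 before induction. All 4 hearts at 2 days off and all 3 at 2 weeks off were below all 4 before induction, with log2 changes of -0.53 (limma adjusted p = 0.113) and -0.44 (adjusted p = 0.261). The mean log2 signal of the hybridisation controls split these groups in the same way. It was 10.16 to 10.64 at 2 days off and 10.2 to 10.35 at 2 weeks off, against 10.78 to 11.42 before induction. With these controls as a covariate, chosen after the data were seen, the Myl2 change at 2 weeks off changed sign. The 3 probe sets of Myl3, 1427768_s_at, 1428266_at and 1427769_x_at, had log2 changes of -0.42, -0.52 and -0.50 at 6 weeks on against before induction (adjusted p = 0.143, 0.0727 and 0.0667). The signals of Myl2 and of the 3 Myl3 probe sets moved with Myh6 probe set 1 over the 18 hearts (Pearson 0.91, 0.89, 0.78 and 0.84). They also moved with the hybridisation controls (Pearson 0.91, 0.87, 0.79 and 0.84). After quantile normalization, which gives every array the same distribution, Myl2 and Myl3 probe sets 2 and 3 were called lower at 6 weeks on (-0.19, -0.29 and -0.26, limma adjusted p = 0.0411, 0.0252 and 0.0361).

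Neither actin gene passed in any comparison. Acta1, probe set 1427735_a_at, gave 20939.9, 14032.3, 6765.8 and 11937.2 before induction, 28258.2, 20445.9, 16037.1 and 14439.7 at 2 weeks on, and 12465.9, 15537.2, 16597.2 and 18440.9 at 2 days off. It gave 20801.2, 15823.5 and 17847.5 at 6 weeks on and 13015.8, 15113.7 and 19050.4 at 2 weeks off. Its groups overlapped in these comparisons, with log2 changes of 0.62 ± 0.257 at 2 weeks on (SE; limma adjusted p = 0.147) and 0.54 ± 0.277 at 6 weeks on (SE; adjusted p = 0.175) against before induction. Quantile normalization called both (0.61, adjusted p = 0.04, and 0.67, adjusted p = 0.0223), and leaving out heart 1 before induction did too (0.87, adjusted p = 0.0285, and 0.79, adjusted p = 0.0335). Actc1, probe set 1415927_at, ranged from 17821.0 to 39618.3 over all hearts and its log2 changes from -0.31 to -0.02.

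The log2 ratio of Acta1 to Actc1 within a heart was -0.49, -0.39, -0.38 and -0.63 at 2 weeks on and -0.51, -0.39, -0.52 and -0.48 at 2 days off, against -0.80, -0.75, -1.75 and -1.17 before induction. All hearts of both groups were above all hearts before induction, by 0.64 on average in each (two-sided exact permutation p = 0.0286 each, the smallest possible, and 0.1 adjusted over 7 comparisons). The 3 hearts at 6 weeks on had ratios of -0.43, -0.35 and -0.76, and those at 2 weeks off had -0.75, -0.52 and -0.69, which overlapped the hearts before induction (exact p = 0.143 and 0.171). The 2 hearts with Xist signal had the lowest ratios of all 18, -1.75 and -1.17. Without them the differences at 2 weeks on and at 2 days off were 0.30 each (exact permutation p = 0.233 after adjustment). The 2 hearts left before induction, at -0.80 and -0.75, were still below all hearts of both groups. With 2 hearts against 4 this test cannot give a p under 0.05 even before adjustment, so it could not pass.

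Genes with the most similar pattern were found by the Pearson correlation of log2 signal over the 18 hearts on chip 430A, as a description. For Myl1 they were Ryr1 (0.94), Pkm (0.93) and Ckb (0.93). For Myh7 they were Xirp1 (0.88), Tnrc6a (0.85) and Enah (0.82). For Acta1 they were Lgals1 (0.81), Syt3 (0.79) and Casq1 (0.77), and for Myh6 probe set 1 Chchd10 (0.94), Atp5g3 (0.93) and Uqcrb (0.92). These points share the arrays, and the last 3 belong to the probe set that also moved with the hybridisation controls.

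Some other genes of the thick filament fell while the transgene was on. Of 15 measured, 0 rose and 4 fell at 2 weeks on, where 5.01% of the probe sets of both chips were called (8.36% on chip 430A). The list median was -0.01, beside -0.05 for all probe sets of chip 430A. Mylk4, a myosin light chain kinase gene, had 182.4, 157.1, 180.6 and 105.0 at 2 weeks on, against 900.8, 1070.8, 1202.7 and 1271.0 before induction (log2 change -2.75, limma adjusted p = 2.88e-07). Mylk3, the cardiac light chain kinase that phosphorylates Myl2, had 1114.1, 935.2, 1159.6 and 846.9 at 2 weeks on, against 2735.1, 1540.1, 2557.0 and 2402.9 before induction (log2 change -1.16, adjusted p = 0.00105). Neither kinase had overlapping groups. Myom2, an M-band protein that links thick filaments, fell by 4.01 on the log2 scale, and Myh7b by 0.79, which was not called with arrays scaled to a common median.

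Of the 15, 1 rose and 3 fell at 6 weeks on, with 13.2% of the probe sets of both chips called (21.4% on chip 430A). Mylk3 averaged 543.7 ± 79.3 (SD, n = 3), against 2308.8 ± 530.1 before induction (SD, n = 4; log2 change -2.04, limma adjusted p = 1.57e-06), Mylk4 fell by 2.34 and Myom2 by 2.24. Mybpc1, the slow skeletal myosin-binding protein C, rose by 1.83 in the probe set that stood for it, and its other 2 probe sets were not called (0.62 and 0.95). Mylk3 and Mylk4 were higher after repression than with the transgene on. Mylk4 averaged 532.8 at 2 days off and 555.7 at 2 weeks off, still below the 1111.3 before induction. Mylk4 at 2 days off was higher than at 2 weeks on by 1.71, Mylk3 by 0.93 and Myom2 by 3.66. That made 3 higher and 0 lower (9.73% of both chips called, 18.0% of chip 430A). At 2 weeks off against 6 weeks on 4 rose, among them Mylk3 (1.73), Myom2 (2.05) and Mylk4 (1.36), and Mybpc1 fell by 1.80. In that comparison 10.9% of both chips and 19.1% of chip 430A were called.

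Of 20 measured thin filament genes 1 rose at 2 weeks on, Tpm4, a non-muscle tropomyosin (log2 change 0.82, limma adjusted p = 0.00156). That share is near the 5.01% of all probe sets called (8.36% on chip 430A). At 6 weeks on 2 rose and 4 fell (13.2% of all called, 21.4% on chip 430A). Among them were Lmod3, an actin filament nucleator of muscle (-0.91), and Tmod1, which caps thin filaments (0.45). Actg1 (-0.40) and Tpm3 (-0.49) were not called with arrays scaled to a common median, nor was Tmod1 after quantile normalization. At 2 days off against 2 weeks on Nebl, a Z-disc protein, rose by 1.76 (its other 2 probe sets had -0.02 and 0.03) and Tpm4 fell by 0.74. The counts were 2 higher and 1 lower (9.73% of all called, 18.0% on chip 430A). At 2 weeks off 2 rose and 0 fell against 6 weeks on (10.9% of all called, 19.1% on chip 430A).

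Of 29 measured regulators of myosin and actin genes, 0 rose and 2 fell at 2 weeks on and 2 rose and 3 fell at 6 weeks on. Of all probe sets 5.01% and 13.2% were called there (8.36% and 21.4% on chip 430A, used for a gene where possible). Vgll2, a cofactor of the TEAD factors that bind the MCAT box, had 1399.2, 738.7 and 2007.8 at 6 weeks on, against 237.6, 201.5, 142.8 and 206.5 before induction (log2 change 2.64 ± 0.236, SE; limma adjusted p = 1.57e-06). At 2 weeks off it had 266.5, 259.8 and 278.1, a log2 change of -2.20 from 6 weeks on (limma adjusted p = 4.82e-05). The signal was high in the 3 hearts at 6 weeks on and at most 380.2 in the other hearts.

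Hopx, a homeodomain protein without DNA binding that restrains SRF, had 4114.8, 4199.2 and 3242.6 at 6 weeks on, against 9876.9, 10104.9, 9711.7 and 11434.2 before induction (log2 change -1.41, limma adjusted p = 9.83e-07). It was lower at 2 weeks on too, by a log2 change of -0.71, and rose by 0.50 at 2 days off and by 1.31 at 2 weeks off. Its other probe set was called in the same direction in 3 of those comparisons and not at 2 days off (0.21). Pura, a single-strand DNA-binding protein that represses Myh6 in rat heart cells, had log2 changes of -0.45 at 2 weeks on, not called with arrays scaled to a common median, and -0.84 at 6 weeks on. Of its other 4 probe sets 1 was called at 6 weeks on, and they ran from -0.81 to 0.29. Nkx2-5, a cardiac homeodomain factor, rose by 0.60 at 6 weeks on and fell by 0.83 at 2 weeks off. At 2 days off against 2 weeks on 4 regulators rose and 2 fell. Among those that rose was Srf itself, by 0.66 (0.35 in its other probe set, not called). The 2 that fell were Mef2c (-0.56) and Smarca4 (-0.48). The other 4 probe sets of Mef2c had -0.29 to 0.31 and that of Smarca4 had -0.07, none called. Against 6 weeks on, 3 rose and 2 fell at 2 weeks off. In these comparisons, in order, 9.73% and 10.9% of all were called (18.0% and 19.1% on chip 430A).

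**Figure D5:**
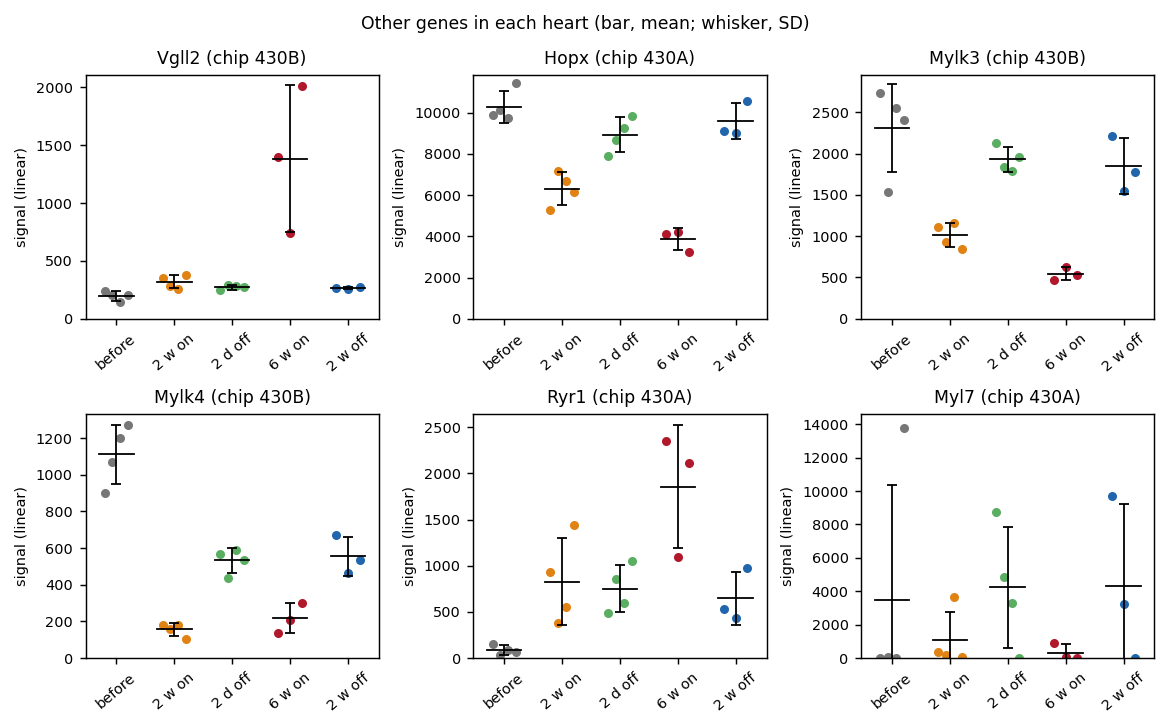
Signal of Vgll2, Hopx, Mylk3, Mylk4, Ryr1 and Myl7 in each heart, with the group mean as a bar and the SD as a whisker, in time order on linear axes from 0. Hopx and Mylk3 are lowest at 6 weeks on and Vgll2 is high there alone, while Myl7 varies within groups, from 6.1 to 13763.1 before induction.

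Of 8 genes of the fetal program 0 were called at 2 weeks on by limma, and 2 had an unadjusted p under 0.05. At 6 weeks on 4 rose and 0 fell, where 13.2% of all probe sets were called (21.4% on chip 430A). They were Tgfb2 (log2 change 1.44), Fhl1 (1.06, and 0.08 in its other probe set, not called), Xirp1 (0.82) and Actn1 (0.88). Tgfb2, Fhl1 and Xirp1 fell again at 2 weeks off (-1.70, -0.71 and -0.58). Of the other probe sets of these genes, 1 of 3 for Tgfb2 was called at 6 weeks on (0.49 to 0.75) and 0 of 2 for Actn1 (0.42 to 0.91), and at 2 weeks off the other 3 of Tgfb2 had -0.70 to -0.37 and that of Fhl1 -0.41, none called. At 2 days off against 2 weeks on Ankrd1, a stress-induced sarcomere protein, rose by 1.55 (0.74 in its other probe set, also called) and Nppb, the B-type natriuretic peptide, by 1.76, when neither Myh7 nor Acta1 was called.

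Cell markers also moved. Of 10 fibroblast markers 6 rose and 0 fell at 2 weeks on and at 6 weeks on against before induction, where 8.36% and 21.4% of the probe sets of chip 430A, which holds these markers, were called, and their summed signal was 40646.8 to 54945.9 at 2 weeks on and 42308.1 to 55405.0 at 6 weeks on, against 28917.9 to 37431.3 before induction. Of 8 endothelial markers 4 fell at 6 weeks on, 2 of them, Kdr and Tek, not with arrays scaled to a common median, and their sum was 6345.9 to 7526.8, against 8478.2 to 9939.8 before induction. Of 9 measured smooth muscle markers 0 were called at 2 weeks on by limma (1 at an unadjusted p under 0.05), and Cnn1 rose at 6 weeks on, with sums of 14566.2 to 17866.9 against 13283.0 to 16206.7 before induction. Of 8 macrophage and leukocyte markers 0 were called at 6 weeks on by limma (1 at an unadjusted p under 0.05), with sums of 5481.5 to 7329.5 against 5685.3 to 8017.0. The list of 10 ventricular markers holds Myl2, Myl3, Myh6 and Actc1, and of the others Ryr2 rose (0.62, and -0.14 in its other probe set, not called) and Pln fell (-0.71) at 6 weeks on. At 2 weeks off against 6 weeks on, where the lower Myh7 was called, 4 of 8 endothelial markers rose (Kdr and Tek not with a common median, nor Tek after quantile normalization), with sums of 8692.7 to 9866.6 against 6345.9 to 7526.8. In that comparison 2 of 8 macrophage and leukocyte markers rose (Ptprc not with a common median or quantile normalization), with sums of 7618.3 to 10361.5 against 5481.5 to 7329.5, and 2 fibroblast markers rose and 1 fell, where 19.1% of chip 430A was called. At 2 days off against 2 weeks on 2 macrophage and leukocyte markers rose, neither of them with arrays scaled to a common median, with sums of 7038.8 to 10872.6 against 6474.4 to 6976.7 and 18.0% of chip 430A called. The part of the cell makeup in the myosin and actin values was not tested.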

How the data were processed

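Total RNA of 18 mouse hearts was isolated with Ultraspec(TM)-II, labelled with biotin and hybridised to the Affymetrix chips 430A and 430B, per the labels. The deposited values are linear intensity values, MAS5 signals per the submitters' processing notes, whose version those notes do not name. After 2% trimming, the chip 430A array means lay within 0.006% of their mean of 500.2, so the signals were used as deposited. No label names a batch or scan date.

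Probe sets were named by the platform annotation. Those with a mean of at least 20% of the trimmed mean were kept (15565 on chip 430A, 17519 on chip 430B), and log2 values were taken after an offset of 10% of it. Each chip was fitted whole with limma 3.58.1 in R 4.3.3 (lmFit, eBayes with a trend) on all 18 arrays and 5 group means, which share 1 spread, with Benjamini-Hochberg adjustment within a chip. The fit was tested on simulated data. Ratios within a heart were compared by two-sided exact permutation tests. Promoter sequences came from RefSeq, build GRCm38.p6, where all 7 genes were found.

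The genes, lists and tests were chosen with earlier results of these data known. Named were all 10 probe sets and the 3 genes most like Myh6, Myh7, Myl1 and Acta1. Of each list, up to 4 called genes per main comparison were picked by adjusted p, and the text names only some of them. The brightest probe set, on chip 430A where possible, stood for a gene. Markers below the filter, Xist, Akt1, Myl4 and Myl7 are given as checks. Alternatives covered the offset, the filter, scaling, the variance trend, RNA quality, a block on replicate number, the probe set that stands for a gene, and leaving out hearts. The Actb 3′ to middle ratio and the hybridisation controls as covariates, leaving out 2 hearts together, and the dimmer Myh6 probe set were chosen after seeing the data.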

Additional observations from a re-analysis of the deposited data

Results flagged for a closer look

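Myh7 in heart 1 at 2 weeks on had a signal of 1456.1, while the other 3 hearts of the group had 817.3 to 856.0. The gap to the nearest heart was a share of 0.939 of the group's range. Probe set 2 of Myl3 in heart 1 before induction had 39337.4, while the other 3 hearts had 25432.2 to 26900.4, a share of 0.894. These hearts were set apart by that gap alone. Of 36 groups of 4 hearts looked at, 2 stood apart in this way, and chance does so in about 1 in 20.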

How the results depend on the processing

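Of the single-gene values, 937 kept their direction and side of the threshold under settings that keep every heart or leave out 2, 66 changed sign, 22 passed the threshold newly and 15 no longer passed. With 1 heart left out, these counts were 1364, 39, 15 and 22. All values that changed sign were not called in either setting, and unless stated the cause was not tested. Myl1 stayed called against the hearts before induction, and Myh7 at 6 weeks on against 2 weeks on, under every setting run. Limits are the 3 to 4 hearts per group, the 2 Myh6 probe sets that disagree, no batch record, and age that moves with treatment.

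The number of the 10 probe sets called at 2 weeks on against before induction was 2 after quantile normalization and with heart 3 at 6 weeks on and heart 1 at 2 weeks off left out together. At 2 days off against 2 weeks on it was 1 with an offset of 20%, a filter of 50%, quantile normalization or those 2 hearts left out. At 6 weeks on against before induction it was 6 after quantile normalization, 5 with the Actb 3′ to 5′ ratio as a covariate and 1 without both hearts with Xist signal. At 6 weeks on against 2 weeks on it was 2 after quantile normalization, with the replicate block, and without the Xist hearts. At 2 weeks off against 6 weeks on it was 0 with no filter, no variance trend or either Actb covariate, and 2 without the 2 hearts. For the late against the early response it was 1 with the replicate block and without the 2 hearts. With 1 heart left out these counts ran from 1 to 2, 0 to 1, 1 to 4, 1 to 2, 0 to 2 in the order of the first 5, and from 1 to 2 at 2 days off against before induction.

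Genes called in the other lists numbered 10 at 2 days off against 2 weeks on with hybridisation controls as a covariate (21 as reported), 8 at 2 days off against before induction with that covariate or without the Xist hearts (14 as reported), and 18 at 2 weeks off against 6 weeks on with the Actb 3′ to 5′ ratio (29 as reported). With 1 heart left out they ran from 13 to 24, 8 to 20 and 19 to 29, and from 9 to 17 at 6 weeks on against 2 weeks on. Of 94 list values picked by the rule, 74 stayed called with arrays scaled to a common median and 88 after quantile normalization, and 0 changed direction. The common median moved the median of all probe sets at 6 weeks on against before induction from -0.11 to 0.07, and the share of calls that were higher from 39.5% to 69.9%. Elsewhere that share moved from 51.3% to 68.3% (2 weeks on), 52.5% to 33.3% (2 days off against 2 weeks on), 41.4% to 64.6% (6 weeks on against 2 weeks on), 59.5% to 39.9% (2 weeks off against 6 weeks on) and 45.4% to 58.5% (2 weeks off against before induction).

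The Myh7 to Myh6 balance averaged over both Myh6 probe sets was 0.11 at 2 weeks on, -0.39 at 2 days off against 2 weeks on and -0.28 at 2 days off against before induction, and with the dimmer probe set alone 0.94, -1.75 and -0.81. Without the Xist hearts it was -0.40 at 2 days off and -0.20 at 2 weeks off against before induction, and without the 2 hearts -0.05 at 2 weeks off. With 1 heart left out it ran from -0.08 to 0.68 and from -0.05 to 0.88 in those last comparisons. The Acta1 to Actc1 ratio at 6 weeks on against 2 weeks on was 0.09 without the 2 hearts and ran from -0.12 to 0.09 with 1 left out, and at 2 days off against 2 weeks on from -0.06 to 0.03. A mean over probe sets cannot be formed for these actins, with 1 each.

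With the Actb 3′ to middle covariate the log2 changes were Myh6 probe set 2 -0.23 (2 days off against before induction) and Myh6 probe set 2 0.01 (6 weeks on against 2 weeks on). Further changes were Actc1 0.04, Myh6 probe set 1 0.11, Myh6 probe set 2 -0.18 and Myl3 probe set 3 0.13 (2 weeks off against 6 weeks on). With the Actb 3′ to 5′ covariate the log2 changes were Myh6 probe set 1 -0.01 (2 weeks on against before induction) and Actc1 0.12, Myh6 probe set 1 0.29, Myh6 probe set 2 -0.22 and Myl3 probe set 3 0.22 (2 weeks off against 6 weeks on). Further changes were Myh7 -0.02 (2 weeks off against before induction). With common-median scaling the log2 changes were Actc1 0.08 (2 weeks on against before induction) and Actc1 0.14 (6 weeks on against before induction). Further changes were Acta1 0.03 and Actc1 0.06 (6 weeks on against 2 weeks on) and Myl2 -0.13 and Myl3 probe set 1 -0.12 (2 weeks off against 6 weeks on). With the hybridisation control covariate the log2 changes were Acta1 0.18, Actc1 0.15, Myh6 probe set 1 0.03, Myl1 0.05, Myl2 0.14, Myl3 probe set 1 0.17, Myl3 probe set 2 0.23 and Myl3 probe set 3 0.11 (2 days off against 2 weeks on) and Actc1 0.13, Myh6 probe set 1 0.06, Myl3 probe set 1 0.02 and Myl3 probe set 2 0.03 (2 days off against before induction). Further changes were Actc1 0.16 (6 weeks on against before induction) and Acta1 0.16 and Actc1 0.18 (6 weeks on against 2 weeks on). Further changes were Acta1 0.06, Actc1 0.18, Myh6 probe set 1 0.18 and Myl3 probe set 3 0.22 (2 weeks off against 6 weeks on) and Actc1 0.34, Myh6 probe set 1 0.16, Myl2 0.08, Myl3 probe set 1 0.09 and Myl3 probe set 2 0.16 (2 weeks off against before induction). Further changes were Acta1 -0.12 (the late against the early response). With the 2 hearts left out the log2 changes were Actc1 0.12, Myh6 probe set 1 0.17 and Myl3 probe set 3 0.14 (2 weeks off against 6 weeks on) and Myh6 probe set 2 0.47 and Myh7 -0.34 (2 weeks off against before induction). With quantile normalization the log2 changes were Actc1 0.07 and Myl3 probe set 1 0.00 (2 weeks on against before induction) and Myl1 0.19 and Myl3 probe set 2 0.03 (2 days off against 2 weeks on). Further changes were Actc1 0.00 (2 days off against before induction) and Actc1 0.23 (6 weeks on against before induction). Further changes were Acta1 0.06 and Actc1 0.16 (6 weeks on against 2 weeks on) and Myh6 probe set 1 0.03 and Myl3 probe set 3 0.08 (2 weeks off against 6 weeks on). Further changes were Actc1 0.13 (2 weeks off against before induction) and Acta1 -0.08 and Actc1 -0.03 (the late against the early response). With the replicate block the log2 changes were Myh7 -0.07 (2 weeks off against before induction). With the Xist hearts left out the log2 changes were Myh6 probe set 1 -0.04 (2 weeks on against before induction) and Acta1 -0.14 (2 days off against before induction). Further changes were Acta1 -0.14 and Myh7 -0.62 (2 weeks off against before induction).

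Values whose sign changed with 1 heart left out had these ranges. They were Actc1 -0.21 to 0.12 and Myh6 probe set 1 -0.16 to 0.16 (2 weeks on against before induction). For others they were Myl1 -0.13 to 0.11 (2 days off against 2 weeks on). They were Myh7 -0.43 to 0.34 (2 days off against before induction). For others they were Actc1 -0.18 to 0.11 (6 weeks on against before induction). They were Acta1 -0.22 to 0.10 and Actc1 -0.16 to 0.15 (6 weeks on against 2 weeks on). For others they were Actc1 -0.25 to 0.04, Myh6 probe set 1 -0.33 to 0.12, Myl2 -0.20 to 0.18, Myl3 probe set 1 -0.18 to 0.22 and Myl3 probe set 3 -0.15 to 0.11 (2 weeks off against 6 weeks on). They were Actc1 -0.31 to 0.00, Myh6 probe set 2 -2.33 to 0.47 and Myh7 -0.34 to 0.59 (2 weeks off against before induction). For others they were Acta1 -0.11 to 0.21 and Myh6 probe set 2 -2.14 to 0.67 (the late against the early response).

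The replicate numbers do not pair the hearts. Same-number pairs had a median correlation of deviations of -0.02 over 33 pairs, and 5 of them were over 0.1. Different-number pairs had a median of 0 over 96 pairs, and 17 of them were over 0.1. With the replicate block Myl1 at 6 weeks on against 2 weeks on was called (0.85, limma adjusted p = 0.0217), as was the late against the early response of Myh7 (-2.13, adjusted p = 0.0344), and Myh6 probe set 2 at 6 weeks on was not (-2.45, adjusted p = 0.0635). The block cannot enter the permutation tests of the ratios.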
